A study of Mus musculus with 5 samples.

Results

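Cdh5, Mrc1, Cd68, Ptprc, Pdgfra and Pdgfrb, 6 panel genes known from liver cells other than hepatocytes were followed through 5 libraries of isolated mouse hepatocytes. They were taken by name, as the 6 genes of other liver cell types among the 64 genes of the capture panel, and every barcode of every library was searched for them. The mice were male wild-type C57BL/6J animals on normal chow, trained for 3 days with 16 h of fasting and 8 h of feeding a day. On the day of the experiment food was given with 20% sucrose in the drinking water. The fed library (0 h) was collected after 4 h of feeding at clock hour 13, and the fasted libraries after 8, 16, 24 and 30 h without food or sucrose water, at clock hours 21, 5, 13 and 19. The 24 h library alone shares its clock hour with the fed one. Where 5 values are listed, they follow the order of fasting from 0 to 30 h. Each time point had 1 library, made from a number of mice that the sources used here do not state, so no difference below has a replicate check. All intervals are at 95% and cover counting error only. Those of levels and ratios take each counted RNA molecule as independent. Molecules of the 6 genes often fell together in 1 barcode, so these intervals can be too narrow.

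The liver lobule is built of plates of hepatocytes lined by sinusoidal endothelial cells, with Kupffer cells, the resident macrophages, in the sinusoids and stellate cells between endothelium and hepatocytes. Cdh5 encodes VE-cadherin, the adhesion molecule of endothelial junctions. Mrc1 encodes the mannose receptor, which in liver is made by sinusoidal endothelial cells as well as by macrophages. Cd68 encodes a lysosomal glycoprotein of macrophages, and Ptprc encodes CD45, the receptor phosphatase carried by leukocytes. Pdgfra and Pdgfrb encode receptors for platelet-derived growth factor and are used as markers of stellate cells and fibroblasts. The panel was built for hepatocyte genes. It holds 1 of 16 listed endothelial genes (Cdh5), 3 of 19 listed macrophage and other leukocyte genes (Mrc1, Cd68 and Ptprc) and 2 of 12 listed mesenchymal genes (Pdgfra and Pdgfrb), and none of 5 cholangiocyte or 2 erythroid genes. Endothelium thus rests on 1 gene and the mesenchymal types on 2, and Mrc1 is shared between endothelium and macrophages. Barcodes are named here by the genes found in them and not as cell types, although 3 rich barcodes as defined below held Mrc1, Cd68 and Ptprc alone and 1 held Pdgfra and Pdgfrb alone.

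Mrc1 and Cd68 are shown first as sequence, because among carriers of Cd68 a larger share held no other member (89.0%) than among carriers of Mrc1 (63.5%). The lines give bases that lie before each gene's start in both RefSeq (GRCm38.p6) and GENCODE M21, read 5′ to 3′ on the gene's own strand. The Mrc1 stretch is chr2:14229164-14229391 on the plus strand, which stops at the GENCODE start and so short of the RefSeq one, and the Cd68 stretch is chr11:69666171-69666420 on the minus strand. Capitals mark a match to GGAAGT, the core recognised by ETS-family transcription factors with its flank, searched on both strands.
Mrc1: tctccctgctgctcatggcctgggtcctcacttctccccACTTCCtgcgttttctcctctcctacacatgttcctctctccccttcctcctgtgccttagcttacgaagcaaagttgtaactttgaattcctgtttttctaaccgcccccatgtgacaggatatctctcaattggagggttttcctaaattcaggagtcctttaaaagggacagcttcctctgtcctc
Cd68: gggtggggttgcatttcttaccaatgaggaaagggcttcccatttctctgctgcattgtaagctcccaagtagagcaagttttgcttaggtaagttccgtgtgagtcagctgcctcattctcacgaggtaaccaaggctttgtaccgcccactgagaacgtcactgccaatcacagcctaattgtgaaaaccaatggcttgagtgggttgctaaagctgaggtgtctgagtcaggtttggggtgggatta

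Positions of matches are counted from the RefSeq start. The match in Mrc1 lies at position -211, on the opposite strand. Cd68 has no match before its start and 1 match at position 11 after it. RefSeq windows of 300 bases (250 before the start and 50 after it) were held for 4 of the 6 genes, Ptprc with 2 windows, which held 1 and 2 matches, and Pdgfra with none. Cdh5 and Pdgfrb were not in the table. Of 32851 such windows in the genome, 23.8% hold the motif, and 19.7% hold it before the start, so a match is common and says nothing about binding. The motif was chosen after the values had been seen.

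The libraries differed widely in depth, and depth bears on every value that follows. They held 7208 to 12153 barcodes and 3979629 to 11288725 panel UMIs (unique molecular identifiers, each a counted RNA molecule). The median barcode held 1033, 219, 651, 1202.5 and 1149 UMIs. No barcode of the 0, 24 and 30 h libraries held under 156 UMIs, whereas 4992 barcodes at 8 h and 247 at 16 h did. Albumin (Alb), the main secreted protein of hepatocytes, took 69.4% to 71.8% of panel UMIs in every library, and it is the 1 of 5 listed hepatocyte markers on the panel, so the label of the libraries rests on it and on the zone genes. Between libraries, 238 barcode sequences occurred in 2 of them, and 3 rich barcodes as defined below had such a sequence.

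The 6 genes were rare, with 2450 UMIs in all libraries, and their level was highest after 8 h of fasting. As CPM, UMIs per 1000000 panel UMIs of the library, the 6 genes together stood at 76.2 (Poisson interval 70.1 to 82.7) in the fed library and then at 220.4, 34.4, 43.2 and 29.7. The 8 h library lay above and the 3 later ones below the fed one, with log2 ratios to 0 h of 1.53 (1.38 to 1.69), -1.15 (-1.38 to -0.92), -0.82 (-0.998 to -0.637) and -1.36 (-1.56 to -1.16). In these summed values, fewer cells of a type and less RNA per cell cannot be told apart. Counted per barcode, the 8 h value lay slightly under the fed one (log2 -0.14), and in barcodes of at least 200 UMIs it lay at log2 -0.013 (-0.26 to 0.23). Without the barcodes holding 3 or more UMIs of the 6 genes, the 16 h value moved to log2 -0.24 (-0.52 to 0.03) and the 24 h value to -0.12 (-0.35 to 0.11), both with intervals that hold 0, and the 30 h value to -0.92 (-1.18 to -0.65).

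**Figure D1:**
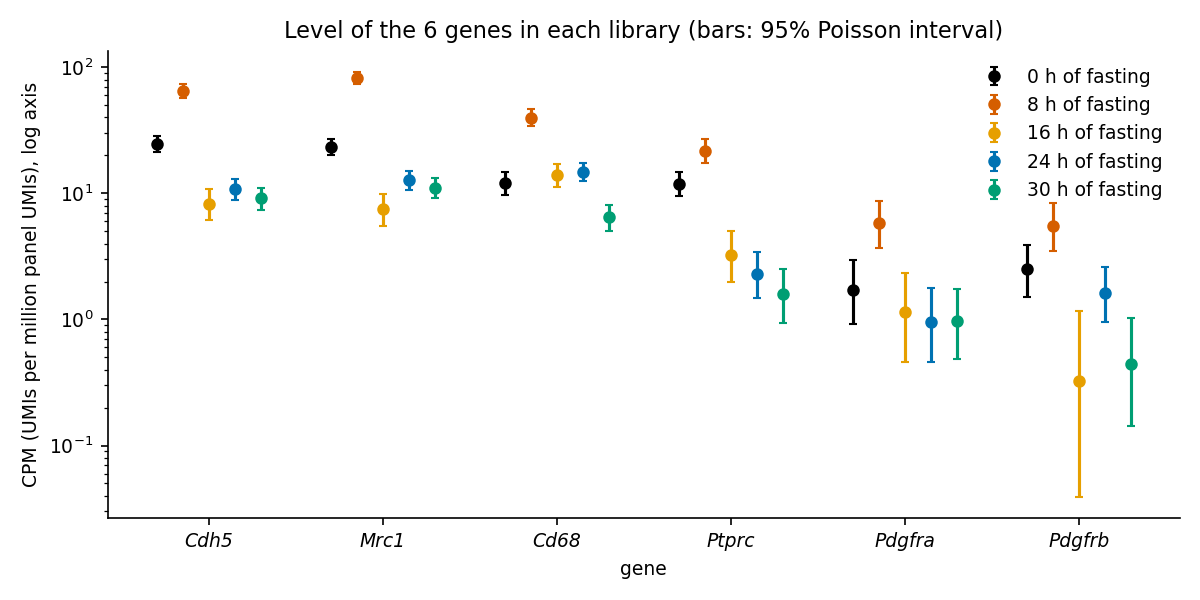
Level of each of the 6 genes, in CPM on a log axis, in the 5 libraries (colours; 1 point per library, bars are 95% Poisson intervals). The 8 h point is the highest for each gene, though counted per barcode Cdh5, Ptprc and Pdgfrb at 8 h lie under 0 h. For every gene but Cd68 the 16, 24 and 30 h points lie under the 0 h point. The log2 intervals to 0 h of Pdgfra at these times and of Pdgfrb at 24 h hold 0. Levels are to be compared within a gene.

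Gene positions are those of GENCODE M21 on GRCm38. Cdh5, the endothelial cadherin (ENSMUSG00000031871; chromosome 8, 104101625 to 104144511, plus strand), gave 186, 258, 51, 113 and 103 UMIs. Its level was 24.6, 64.8, 8.29, 10.8 and 9.12 CPM. The order from the top was 8 h, then 0 h, and then 24, 30 and 16 h, whose intervals overlap. Mrc1 (ENSMUSG00000026712; chromosome 2, 14229392 to 14332057, plus strand) gave 176, 328, 46, 133 and 125 UMIs, or 23.3, 82.4, 7.47, 12.8 and 11.1 CPM, and its libraries took the same order. The mannose receptor gene stood 3.54-fold above the fed library at 8 h (log2 1.82, 1.55 to 2.09), which turned to log2 -0.60 in barcodes of at least 200 UMIs, and lowest at 16 h (log2 -1.64, -2.14 to -1.17).

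Ptprc (ENSMUSG00000026395; chromosome 1, 138062861 to 138175708, minus strand) had the lowest late values of the 4 better covered genes. It gave 90, 87, 20, 24 and 18 UMIs, or 11.9, 21.9, 3.25, 2.30 and 1.60 CPM. Counted per barcode, Ptprc at 8 h lay under the fed library (log2 -0.80, -1.25 to -0.36). Its 3 late libraries overlapped one another and lay under the fed level with log2 ratios of -1.88, -2.37 and, after 30 h, -2.90 (-3.72 to -2.16). Of the fed Ptprc UMIs, 83.3% lay in barcodes holding 3 or more UMIs of the 6 genes. Without such barcodes the ratio was -0.03 (-1.26 to 1.16) at 16 h and -0.47 (-1.60 to 0.67) at 24 h, with intervals that hold 0. At 30 h it was then -2.49 (-4.54 to -0.84). Cd68 did not follow the order of the Ptprc levels. The gene of the macrophage glycoprotein (ENSMUSG00000018774; chromosome 11, 69664213 to 69666153, minus strand) gave 91, 159, 86, 154 and 73 UMIs and stood at 12.1, 40.0, 14.0, 14.8 and 6.47 CPM. Its 0, 16 and 24 h intervals overlapped, with log2 ratios to 0 h of 0.21 (-0.23 to 0.65) at 16 h and 0.29 (-0.09 to 0.68) at 24 h.

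The growth factor receptors were close to the limit of the data. Pdgfra (ENSMUSG00000029231; chromosome 5, 75152292 to 75198215, plus strand) gave 13, 23, 7, 10 and 11 UMIs, and its level differed from the fed one beyond counting error at 8 h alone (log2 1.75, 0.71 to 2.85), which did not hold per barcode (log2 0.07, -0.97 to 1.17) or in barcodes of at least 100 UMIs (0.86, -0.40 to 2.11). An exon of Pdgfra is overlapped on the same strand by a microRNA gene, Mir7025, and whether any Pdgfra UMI came from that gene was not tested. Pdgfrb (ENSMUSG00000024620; chromosome 18, 61045150 to 61085061, plus strand) gave 19, 22, 2, 17 and 5 UMIs, with intervals below the fed level at 16 h (log2 -2.95, -6.10 to -0.90) and 30 h (log2 -2.51, -4.28 to -1.04).

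A difference from the fed library was called where it was past 2-fold with an interval clear of 0, among genes whose UMIs in both libraries came to 100 or more. This left 4 of the 6 genes, among 56 of the panel. At 8 h, 3 of the 4 were called higher (Cdh5, Mrc1 and Cd68), against 17.9% of the panel, and none lower, against 12.5%. Per barcode none of these 3 calls was kept, with Cdh5 at log2 -0.28 (-0.56 to -0.0017), Mrc1 at 0.14 (-0.12 to 0.42) and Cd68 at 0.05 (-0.33 to 0.44). At 16 h none was higher, against 10.7%, and 3 were lower (Cdh5, Mrc1 and Ptprc), against 28.6%. At 24 h none was higher, against 8.93%, and 2 were lower (Cdh5 and Ptprc), against 23.2%. At 30 h none was higher, against 16.1%, and 3 were lower (Cdh5, Mrc1 and Ptprc), against 26.8%. Without barcodes holding 3 or more UMIs of the 6 genes, none of the lower calls at 16 and 24 h stayed past 2-fold. Cdh5, Mrc1 and Ptprc then stood at log2 -0.65, -0.89 and -0.03 at 16 h, and Cdh5 and Ptprc at -0.68 and -0.47 at 24 h. At 30 h Cdh5 (-1.24) and Ptprc (-2.49) stayed past 2-fold and Mrc1 (-0.56) did not. The median log2 ratio of the 4 was 1.56, -1.61, -1.03 and -1.25 in the 4 fasted libraries, beside 0.05, -0.15, -0.12 and -0.07 for the 56 panel genes. All 4 comparisons share the fed library.

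Over the 5 libraries, the course of the summed level was most like that of Cyp46a1, which encodes a cholesterol hydroxylase, among 52 other panel genes that reached 100 UMIs in each library. The root mean square difference in centred log2 CPM was 0.45 for Cyp46a1, 0.69 for Mlxipl, the carbohydrate response factor, and 0.78 for Pklr, the liver pyruvate kinase. Cyp46a1 stood at 52.3, 107.8, 33.1, 38.0 and 35.8 CPM, highest at 8 h as well. Mlxipl and Pklr were not, with 2025.6 and 2804.5 CPM at 0 h and 1605.4 and 2772.9 CPM at 8 h. This likeness rests on 5 points.

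Per panel UMI, the level of these genes was highest in the shallowest barcodes. Barcodes with under 300 UMIs were 20.5% of all barcodes and held 4.13% of panel UMIs, but 49.1% of the UMIs of the 6 genes. The 8 h library weighs on that share, with 712 of its 877 UMIs of the 6 genes there. The others had 272 of 575 at 0 h, 33 of 212 at 16 h, 96 of 451 at 24 h and 89 of 335 at 30 h. In the fed library the summed level fell with depth from 10100 CPM in barcodes under 200 UMIs to 1542 from 200 UMIs, 116 from 300, 31.7 from 600 and 38.6 from 1200 upwards. At 8 h it fell from 2044 CPM under 100 UMIs to 669, 140, 62.9, 49.0 and 45.5. The same steep slope was seen at 30 h, from 6474 CPM under 200 UMIs to 20.0 at 1200 or more. It was shallower at 16 h, from 231 CPM between 100 and 200 UMIs to 16.9. At 24 h the level went from 569 CPM between 200 and 300 UMIs to 30.9 at 1200 or more. Few barcodes set the highest of these levels. Under 200 UMIs at 0 h, 39 of 52 barcodes held none of the 6 genes, 2 held 1 UMI and 11 held 3 or more. At 30 h, 23 of 26 barcodes of that depth held none and 3 held 3 or more. At 8 h, 5529 of 5807 held none and 100 held 3 or more.

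**Figure D2:**
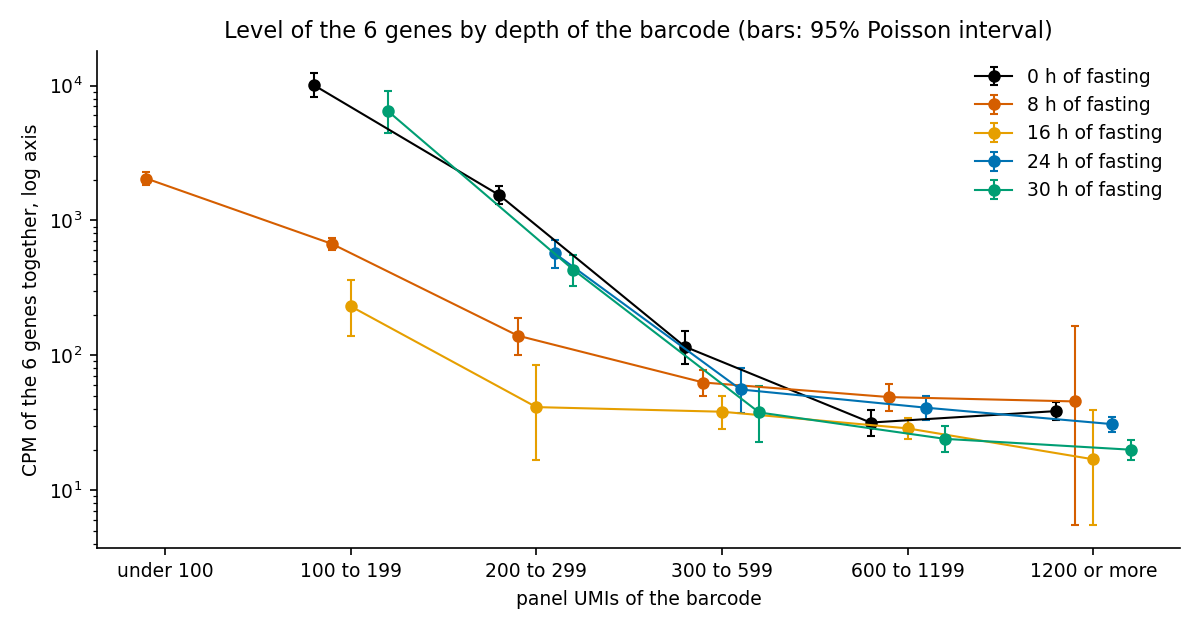
Level of the 6 genes together, in CPM on a log axis, by the number of panel UMIs of the barcode, for each library (bars are 95% Poisson intervals; classes with under 20 barcodes are not drawn). In each library the shallowest class drawn has the highest level, 10100 CPM at 0 h, and above 600 UMIs the libraries lie between 16.9 and 49.0 CPM. In that 0 h class 39 of 52 barcodes held none of the 6 genes and 11 held 3 or more UMIs of them.

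The share in shallow barcodes differed between genes and between libraries. Pooled, Ptprc had 70.7% of its UMIs in barcodes under 300 UMIs, Mrc1 58.7%, Pdgfra 53.1%, Cdh5 50.5% and Pdgfrb 40%. Cd68 had 24.9%. The 8 h library weighs on these shares: in it Cdh5 had 84.5% and Cd68 60.4% in shallow barcodes, Pdgfrb 59.1%, while at 16 h Cdh5 had 7.84% and Cd68 8.14%. Among barcodes with 300 or more UMIs, Cd68 was at 9.16, 21.1, 13.4, 14.4 and 5.83 CPM in the 5 libraries, and its 8 h value stayed above the fed one (log2 1.20, 0.68 to 1.72), by less than the log2 1.73 (1.35 to 2.12) over all barcodes. In the same deeper barcodes, Cdh5 at 8 h stood at 13.4 CPM beside 14.5 at 0 h (log2 -0.12, -0.68 to 0.41), and Mrc1 at 10.4 beside 12.0 (log2 -0.21, -0.85 to 0.39). Per panel UMI, the higher 8 h levels of Cdh5 and Mrc1 were thus not seen in the deeper barcodes, and that of Cd68 was. At 30 h Cdh5 and Ptprc stayed under the fed level in the deeper barcodes too, with log2 ratios of -1.17 (-1.62 to -0.73) and -2.46 (-4.05 to -1.11). So did Mrc1 (-0.55, -0.99 to -0.12), Cd68 (-0.65, -1.165 to -0.139) and Pdgfrb (-1.91, -4.035 to -0.11), while the interval of Pdgfra held 0. In these barcodes Cdh5 and Mrc1 also lay under the fed level at 16 h, and Cdh5, Mrc1 and Ptprc at 24 h. Cd68 lay above it at 16 h (0.55, 0.06 to 1.04) and 24 h (0.65, 0.23 to 1.09).

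Barcodes with 3 or more UMIs of the 6 genes, called rich barcodes from here on, numbered 36, 105, 4, 17 and 18. They made up 0.499%, 0.864%, 0.0423%, 0.199% and 0.178% of the barcodes of their libraries. These 180 barcodes were 0.379% of all barcodes and held 42.1% of the UMIs of the 6 genes. Their median depth was 231, 101, 128, 259 and 550.5 UMIs, in each library under the library's own median. Under 200 UMIs lay 11 of 36, 100 of 105, 3 of 4, 3 of 17 and 3 of 18. Of the 105 rich barcodes at 8 h, 97 held under 156 UMIs, a range in which the 0, 24 and 30 h libraries have no barcode, so their number cannot be compared with those libraries. Thinned to 150 UMIs each, the share of barcodes with a UMI of the 6 genes was 1.07%, 1.24%, 0.508%, 0.710% and 0.446%, with 4809 shallower barcodes left out at 8 h, 207 at 16 h and none in the other libraries. Unthinned it was 4.07%, 3.69%, 1.91%, 4.02% and 2.23%.

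Most rich barcodes were shallow, and the rest were spread over greater depths. Under 300 UMIs there were 151, from 300 UMIs and below 1200 there were 11, and at 1200 or more 18. The 24 barcodes with 10 or more UMIs of the 6 genes all held under 300 UMIs, and no rich barcode of 300 or more UMIs had over 9. The fed library had 12 of those 24. Its highest barcode held 24 UMIs of the 6 genes among 252, with 13 of Mrc1, 7 of Cdh5 and 4 of Pdgfrb. Its next held 20 among 242, with 12 of Ptprc, 3 of Cdh5, 3 of Mrc1, 1 of Cd68 and 1 of Pdgfra. In the first, Alb took 27.4% of UMIs and Actb, the cytoskeletal actin, 35.7%, and in the second 18.2% and 38.4%. By contrast, a 24 h barcode with 9 Mrc1 and 5 Cdh5 UMIs among 259 had 74.5% Alb and 1.93% Actb.

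**Figure D3:**
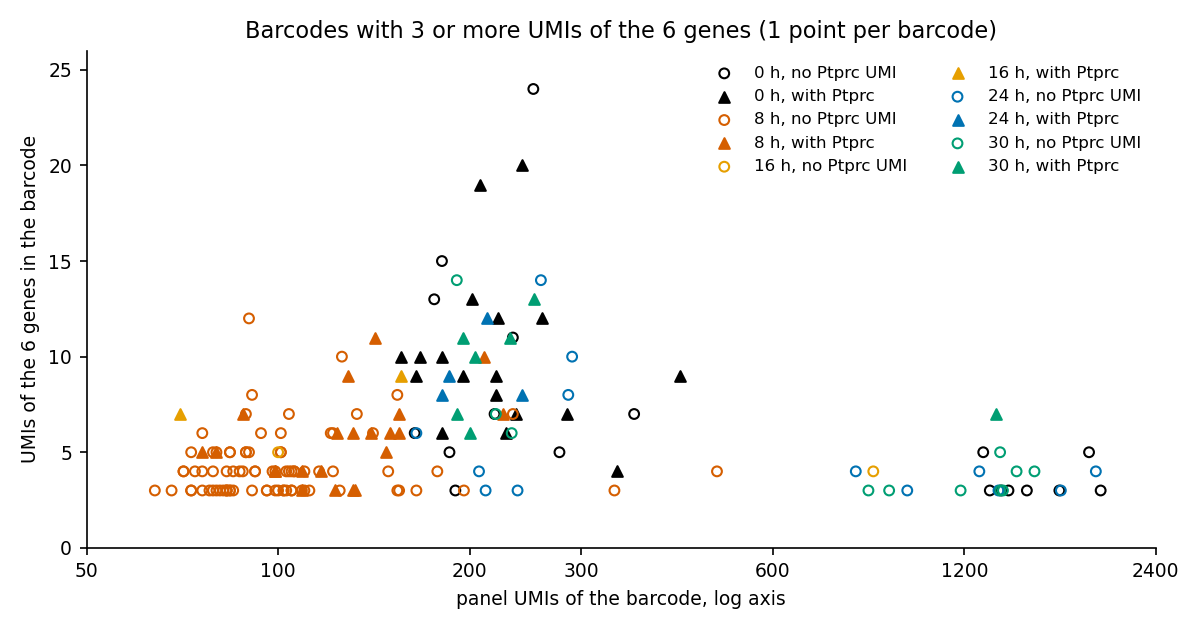
Each point is 1 barcode with 3 or more UMIs of the 6 genes, placed by its panel UMIs (log axis) and its UMIs of the 6 genes, coloured by library, with triangles for barcodes holding Ptprc. The barcodes with 10 or more such UMIs lie under 300 panel UMIs, those from 810 panel UMIs upwards have 3 to 7, and the 8 h points lie mostly near 100.

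Most carriers of a member were not rich. Cdh5 was found in 504 barcodes, 78.2% of them with a single UMI of it, Mrc1 in 520 (71.2%), Ptprc in 142 (71.1%), Pdgfra in 54 (88.9%) and Pdgfrb in 58 (91.4%). Cd68 was found in 519 barcodes, 93.6% of them with a single UMI, and 89.0% of its carriers held no other member. That share was 65.5% for Cdh5, 63.5% for Mrc1, 57.8% for Ptprc, 72.2% for Pdgfra and 70.7% for Pdgfrb, so most carriers of each gene held it alone. Rich barcodes held 61.5% of Ptprc UMIs, 52.1% of Mrc1, 47.7% of Cdh5, 39.1% of Pdgfra and 29.2% of Pdgfrb, but 14.4% of Cd68. Barcodes with exactly 1 UMI of the 6 genes were deeper than the rest in each library, with a median of 1234 UMIs beside 1029 without any at 0 h, and 271 beside 224 at 8 h. Whether these single UMIs are RNA of the barcode's own cell or free RNA was not tested.

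By number of barcodes, Cdh5 and Mrc1 were found together more than any other combination. They were also the members with the most UMIs (711 and 808). Both were present in 133 of the 180 rich barcodes, and 1 or the other in 174. With no further member, the pair made up 74 rich barcodes (9, 48, 1, 7 and 9). Since rich barcodes were chosen by these genes, the pair was also measured over all barcodes, as the level of 1 gene in carriers of the other against non-carriers, with both genes left out of the denominator. Of 504 barcodes with Cdh5, 164 held Mrc1, at 980 CPM against 11.0 CPM in barcodes without Cdh5. That is a log2 ratio of 6.48 (6.27 to 6.68), and it was 6.14, 6.87, 6.43, 5.57 and 6.57 in the libraries from 0 to 30 h. In barcodes of at least 300 UMIs the ratio was 4.32 (3.87 to 4.75), and 22 of the 29 rich barcodes of that depth held both. The pair did not have the highest ratio over all barcodes, where that of Ptprc in barcodes with Mrc1 was 7.17 (6.79 to 7.56).

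Ptprc, the gene of the leukocyte phosphatase, also went with the pair, and its rich barcodes were mostly shallow. Ptprc was in 53 rich barcodes, of which 52 held Cdh5 or Mrc1 as well and 50 lay under 300 UMIs. They were 18 of 36, 22 of 105, 2 of 4, 4 of 17 and 7 of 18 rich barcodes. Over all barcodes, where no minimum applies, 40 of the 142 carriers of Ptprc held Cdh5 and 52 held Mrc1. Mrc1 stood at 1669 CPM in the 142 barcodes with Ptprc and at 17.4 in the others (log2 6.59, 6.30 to 6.86), and Cd68 at 653 against 13.1 (log2 5.64, 5.19 to 6.07). Cdh5, the endothelial gene, stood at 1188 CPM in barcodes with Ptprc against 15.8 (log2 6.23, 5.89 to 6.55). With 300 or more UMIs, the ratio of Mrc1 in barcodes with Ptprc was 2.44 (0.15 to 4.00). That of Ptprc was 3.35 (1.85 to 4.55) in barcodes with Mrc1 and 3.28 (1.78 to 4.48) in barcodes with Cdh5. These intervals were clear of 0, but only 3 rich barcodes of that depth held Ptprc, so the ratios rest on very few barcodes. In 1 of them, 4 Ptprc UMIs lay with 3 of Cdh5 and 1 of Mrc1 among 428. Another held 2 of Ptprc, 1 of Cdh5 and 2 of Mrc1 among 1347. Genes of endothelium and of leukocytes were therefore found in the same barcodes: Cdh5 and Ptprc shared 39 rich barcodes (15, 12, 1, 4 and 7). Whether such a barcode held 1 cell, several cells or free RNA was not tested.

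Cd68 was the member least tied to the others. Mrc1 in barcodes with Cd68 stood at 249 CPM against 17.6 (log2 3.82, 3.53 to 4.10), under its ratio in barcodes with Cdh5 or Ptprc. With 300 or more UMIs the ratio was 0.73 (-0.60 to 1.79), and that of Cd68 in barcodes with Cdh5 was -0.02 (-1.90 to 1.35). A rich barcode with Cd68 and without Ptprc occurred 21 times, each under 300 UMIs.

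Of the 30 ordered pairs, the 2 growth factor receptors had the highest ratios. Of 54 barcodes with Pdgfra, 7 held Pdgfrb (log2 7.66, 6.46 to 8.68), although this rests on 9 UMIs and its interval overlaps that of Ptprc in barcodes with Pdgfra (log2 6.99, 6.29 to 7.63). Pdgfra or Pdgfrb was in 22 rich barcodes (5, 11, 0, 5 and 1). Of these, 20 held Cdh5 or Mrc1 as well, and 21 lay under 300 UMIs. Rich barcodes with a growth factor receptor gene and neither Cdh5 nor Mrc1 were thus 2 of 180. This follows in part from the minimum of 3 UMIs. A single UMI was all that 48 of 54 barcodes with Pdgfra and 53 of 58 with Pdgfrb held of it, so few could be rich without another member. Over all barcodes, 10 of the 54 carriers of Pdgfra held Cdh5 and 12 held Mrc1. Of the 58 carriers of Pdgfrb, 12 held Cdh5 and 11 held Mrc1.

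**Figure D4:**
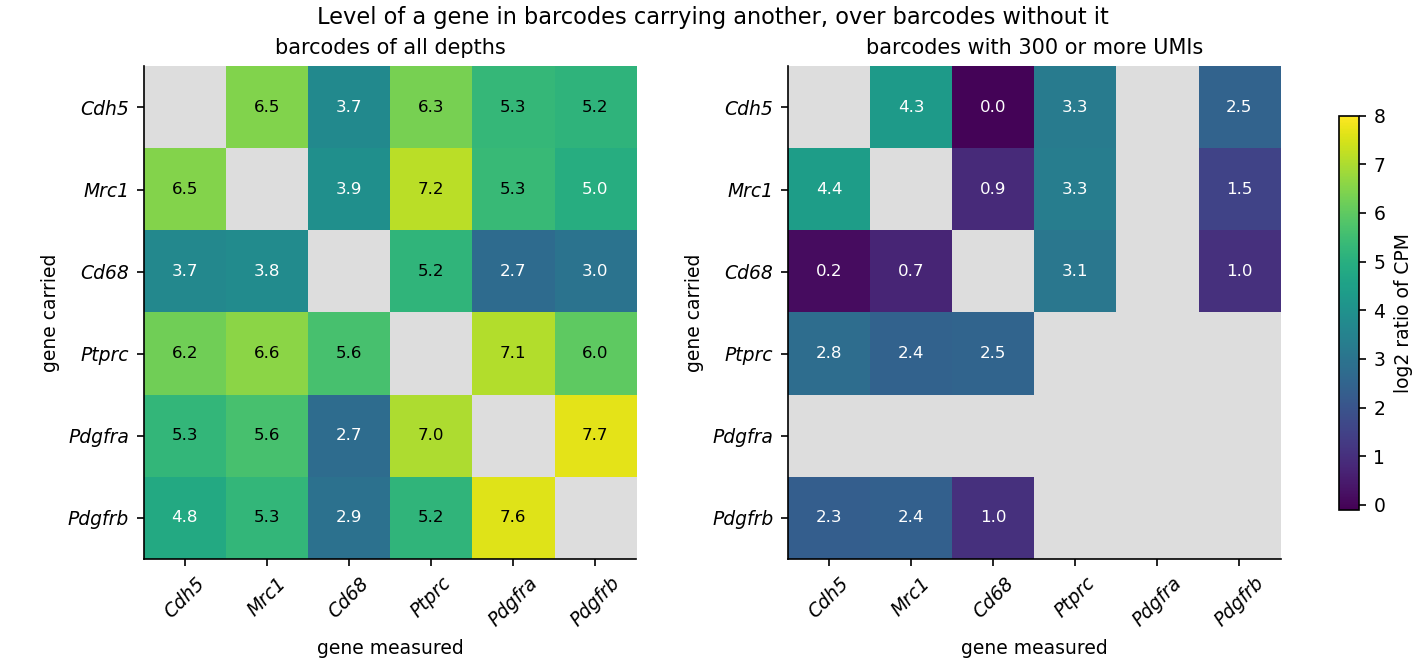
Log2 ratio of the CPM of 1 gene (columns) in barcodes carrying another (rows) over barcodes without it, for the 5 libraries pooled, in barcodes of all depths (left) and of 300 or more UMIs (right). Grey squares off the diagonal had no UMI on 1 side, the ratio of Mrc1 in barcodes with Cdh5 is 6.5 on the left and 4.3 on the right, and the row and column of Cd68 are the lowest in both panels apart from its ratios with Ptprc.

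Hepatocyte zones were read from 3 of the 7 listed periportal genes on the panel (Cyp2f2, Hsd17b13 and Alb) and from the 5 pericentral genes on it (Cyp2e1, Gulo, Cyp7a1, Cyp27a1 and Glul). Periportal hepatocytes sit where blood enters the lobule and pericentral ones around the vein where it leaves, and Glul, glutamine synthetase, is made by the hepatocytes next to that vein and also outside hepatocytes. Each gene's level in 178 rich barcodes was compared with barcodes of the same library and depth class holding none of the 6 genes, which left out 2 rich barcodes at 16 h. The pericentral genes did not move together. Glul was higher, with 400 UMIs where 119.2 would be found at the others' level (log2 1.75, 1.60 to 1.89), while Cyp2e1, the ethanol-oxidising P450 of the same zone, was lower (log2 -0.35, -0.43 to -0.27). Gulo, which encodes an enzyme of vitamin C synthesis, was lower as well (45 UMIs, log2 -0.88, -1.33 to -0.46). Cyp27a1 (log2 -0.06) and Cyp7a1 (log2 -0.24), both enzymes of bile acid synthesis, had intervals that hold 0. On the periportal side, Cyp2f2 stood at log2 -0.02 (-0.12 to 0.08), Hsd17b13 at -0.08 and Alb at -0.17. The other 4 listed periportal genes, not counted as zone genes here and named after their values were seen, stood at log2 0.08 (Pck1), -0.09 (G6pc), -0.06 (Sds) and 0.12 (Igf1).

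The first exon of Glul is overlapped on the same strand by a microRNA gene in GENCODE M21. The libraries were 3' libraries, and whether any Glul UMI came from that gene was not tested. Glul was higher in each library with at least 10 rich barcodes, with log2 ratios of 1.05 (0.74 to 1.35) when fed, 2.40 (2.18 to 2.61) after 8 h, 1.36 (0.95 to 1.73) after 24 h and 1.94 (1.58 to 2.28) after 30 h. Cyp2e1 was lower at 0 h (log2 -1.19, -1.44 to -0.94), 8 h (-0.34) and 30 h (-0.69), and higher at 24 h (0.40, 0.26 to 0.53). The 24 h value includes 1 barcode with 192 Cyp2e1 UMIs among 1267, the most in any rich barcode. A value without that barcode was not computed, so the higher level at 24 h may rest on it alone. The Glul difference lay in shallow barcodes. Under 300 UMIs it was log2 2.49 (2.33 to 2.64), and with 300 or more UMIs 0.23 (-0.13 to 0.57). At least 1 Glul UMI was in 114 of 151 shallow rich barcodes (75.5%) and in 28.0% of 9368 shallow barcodes without the 6 genes, at median depths of 117 and 147 UMIs. Cyp2e1 was in 91.4% and 91.0% of the same barcodes.

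Other genes moved with Glul. By the rule for naming genes, the 5 panel genes highest in rich barcodes among those with at least 20 UMIs there were Igfbp3, Actb, Nr1h3, Glul and Ywhaz, and all 5 were past 2-fold, of 49 genes tested (10.2% higher and 0% lower). Actb had 4058 UMIs where 847.4 would be found (log2 2.26, 2.22 to 2.30), Nr1h3, the liver X receptor alpha, 183 where 48.7 would (log2 1.91), and Ywhaz, a 14-3-3 protein, 355 where 131.3 would (log2 1.44). Igfbp3, an insulin-like growth factor binding protein known from non-parenchymal liver cells, was rare. Of its 103 UMIs, 28 were in 17 rich barcodes, as were 25 of the 33 that lay in barcodes under 300 UMIs. It was at 0 in the 74 barcodes with Cdh5 and Mrc1 alone, and had 17 UMIs in those with Ptprc and 14 in those with Pdgfra or Pdgfrb, groups that overlap. The lowest 5 genes were Gulo, Cyp2e1, Cyp2c70 (log2 -0.29), Nr0b2 (log2 -0.27) and Cyp7a1, none past 2-fold.

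**Figure D5:**
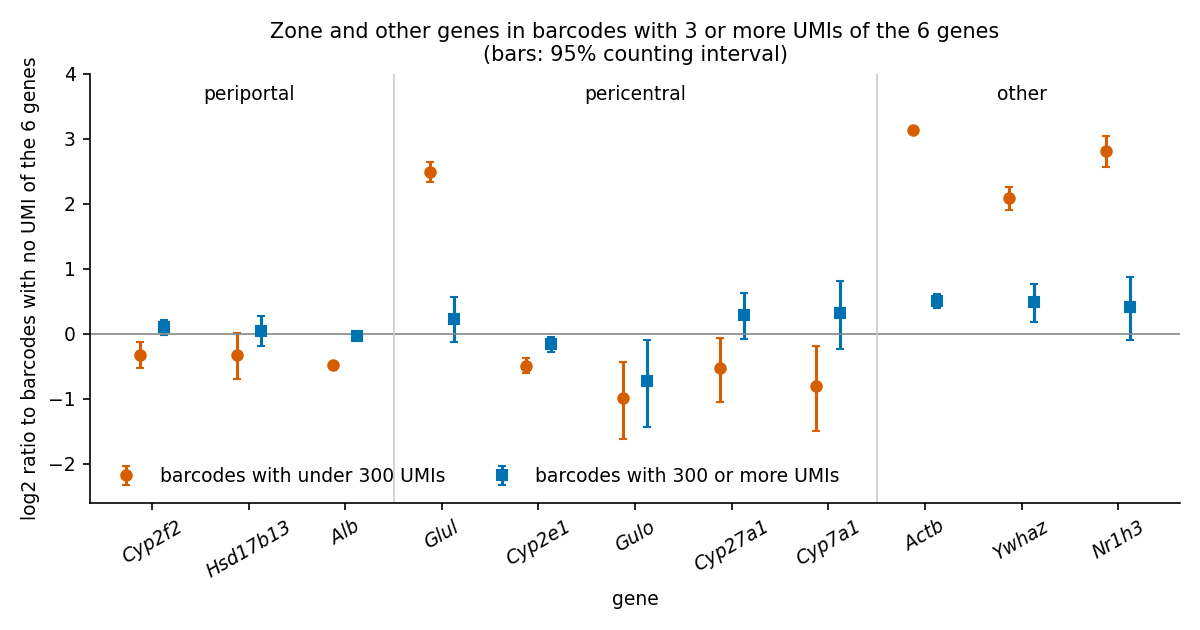
Log2 ratio of zone and other genes in barcodes with 3 or more UMIs of the 6 genes to barcodes of the same library and depth class with none, for barcodes under 300 UMIs (circles) and of 300 or more (squares; bars are 95% counting intervals). Under 300 UMIs, Glul (2.49), Actb (3.13), Nr1h3 (2.81) and Ywhaz (2.08) lie far above 0 while the other zone genes lie under it, and in deeper barcodes Glul and Nr1h3 have intervals that hold 0.

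How far a rich barcode differed from the rest went with which genes it held. Values of a group were summed over its UMIs, so a deep barcode weighs more than a shallow one. Barcodes with Cdh5 and Mrc1 alone had 65.8% Alb and a Glul ratio of log2 1.24, with Actb at 0.96. Most UMIs of this group lay in its barcodes of 300 or more UMIs, although its median depth was 104.5, so these values do not describe its typical barcode. Barcodes with Ptprc had 41.6% Alb, Glul at 2.49 and Actb at 3.47. Those with Cd68 and no Ptprc had 37.9% Alb, Glul at 2.96 and Actb at 3.37, and those with Pdgfra or Pdgfrb 42.9% Alb, Glul at 2.40 and Actb at 3.39. Of the 74 barcodes with Cdh5 and Mrc1 alone 55 lay under 300 UMIs, beside 50 of 53, 21 of 21 and 21 of 22 in the other groups, so depth moved with the genes held and its part in the result was not tested. Barcodes with a single UMI of 1 member and no other were near the rest at the same depth, with Glul at log2 -0.24 for Cdh5 (306 barcodes), 0.23 for Mrc1 (293 barcodes) and 0.09 for Cd68 (449 barcodes), and Actb at 0.14, 0.16 and 0.16.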

How the data were processed

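Hybrid capture of 64 genes was applied to 10x Genomics Chromium 3' version 3 libraries of hepatocytes at 5 time points, per the labels' protocols. The counts deposited by the authors are raw UMIs per gene and barcode, with a table of each barcode's library. Cell Ranger 6.0.1 and mm10 are named in the submitters' processing notes. The sources used here do not say how barcodes were called as cells. Every barcode was used, without a filter and without a doublet caller, which 64 genes cannot serve.

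UMIs were summed per library as CPM with exact Poisson intervals. Log2 ratios had exact conditional binomial intervals, and shares exact Clopper-Pearson intervals, all at 95%. With 1 library per time point no test was made. Rich barcodes held 3 or more UMIs of the 6 genes. Their other genes were compared within library and depth class (edges at 100, 200, 300, 600 and 1200 UMIs). The named genes were the 6, 8 zone genes of the panel, Alb and Actb, the 5 highest and 5 lowest in rich barcodes with at least 20 UMIs there, and the 3 nearest in course over the libraries. Igfbp3 counts per group were chosen after its values were seen. The 6 genes, the lists and the minimum of 3 were chosen with earlier results of these data known. Gene positions came from GENCODE M21 and promoters from RefSeq. Alternatives were other denominators, depth limits, minimum UMIs, single libraries and removal of the deepest 5% of barcodes or of shared barcode sequences. Left out after seeing the data were rich barcodes and the 8 h library, and zone genes were split at 300 UMIs. The steps were tested on simulated counts. Tools were Python 3.11.15, numpy 2.4.6, scipy 1.17.1, pandas 2.3.3 and matplotlib 3.10.9.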

Additional observations from a re-analysis of the deposited data

How the results depend on the processing

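No paired analysis was possible because each time point had 1 library, and for the same reason none could be left out within a group. The cause of each shift below was not tested. For the 6 genes together, log2 to 0 h was, at 8 h, -0.14 per barcode, 0.97 with 100 or more UMIs, -0.013 with 200 or more and 0.44 with 300 or more. At 16 h it was -1.83 per barcode, -0.43 with 300 or more and -0.24 without rich barcodes. At 24 h it was -0.60 per barcode, -0.62 with 200 or more, -0.24 with 300 or more and -0.12 without rich barcodes, and at 30 h -0.89 with 300 or more and -0.92 without rich barcodes. For single genes the direction turned in 12 values. At 8 h these were Cdh5 (-0.28 per barcode, -0.39 with 200 or more UMIs, -0.12 with 300 or more), Mrc1 (-0.60 with 200 or more, -0.21 with 300 or more), Ptprc (-0.80 per barcode, -0.52 with 200 or more) and Pdgfrb (-0.54 per barcode). At 16 h they were Cd68 (-0.47 per barcode) and Pdgfra (0.33 with 300 or more, 0.51 without rich barcodes), and at 24 h Pdgfrb (0.013 with 300 or more). The other 204 of 216 values kept their direction, and 180 of the 216 stayed within the interval.

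With a minimum of 2 UMIs, rich barcodes numbered 162, 14 and 35 in the 8, 16 and 24 h libraries, and with 5, 38, 8 and 11 in the 8, 24 and 30 h libraries, when 100% of those at 16 h lay under 200 UMIs. Mrc1 in barcodes with Cdh5 stood at log2 8.83 for carriers of 2 or more UMIs, 7.08 under 300 UMIs, 4.32 above, 6.14, 6.87 and 5.57 in the 0, 8 and 24 h libraries and 6.23 without the 8 h library. In barcodes with Cd68 it stood at 8.06, 4.96 and 0.73 in the first 3 of these settings, and 4.64, 2.78, 2.55 and 4.69 in the 0, 16, 24 and 30 h libraries. In barcodes with Ptprc it stood at 9.16, 5.56 and 2.44, 5.24, 7.08, 6.01 and 8.03 in the 8, 16, 24 and 30 h libraries and 6.95 without 8 h. Of 201 pair values, 200 kept their direction; Cd68 in barcodes with Cdh5 turned to -0.016 with 300 or more UMIs. In rich barcodes, Glul stood at 1.27 and 2.34 with minimums of 2 and 5, 1.93 unweighted by depth, 2.49 under 300 UMIs, 0.23 above and 1.39 without Alb in the denominator. Cyp2e1 stood at -0.15, -0.67, 0.011, -0.49, -0.16 and -0.75 in the same order. Cyp2f2 stood at -0.14 with a minimum of 5, -0.32 under 300 UMIs, 0.10 above and -0.28 without Alb.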
